A study of Mus musculus with 4 samples.

Results

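The genes described are 10 mouse genes of oxidative stress defence, chosen by name as targets of the transcription factor NRF2 or as metallothioneins: Mt1, Mt2, Hmox1, Nqo1, Gclc, Gclm, Srxn1, Txnrd1, Sod2 and Cat. They were found among 18193 genes with at least 1 single-gene probe set on the arrays, and the 10 genes have 22 such probe sets. All 10 passed the filter on low signals and were among the 12187 genes tested. For each gene the probe set with the highest mean signal is given first and the others beside it.

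The samples came from the livers of C57BL/6 mice given carbon tetrachloride (CCl4), a solvent that damages hepatocytes and scars the liver, at 1 ml/kg in 30 injections. The G-CSF group also received recombinant human granulocyte colony-stimulating factor, a cytokine that raises neutrophil production, at 100 µg/kg over the last 7 days. The PBS group received the vehicle over the same days, phosphate-buffered saline with mouse serum albumin at 0.1%. All 4 samples thus carry the CCl4 injury, and no uninjured liver is in the comparison. Each group has 2 arrays, and the labels do not say that these came from separate animals, so the p-values measure only the spread between the arrays, which may be technical. The question was whether the genes of this defence differed between the G-CSF and the PBS samples.

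NRF2 is held in the cytoplasm by KEAP1 and degraded. Electrophiles and oxidants, such as those made when CCl4 is metabolised in hepatocytes, modify KEAP1, and NRF2 then enters the nucleus and binds antioxidant response elements with a small MAF partner, in competition with BACH1. Metallothioneins are small cysteine-rich proteins that bind zinc and copper. They are induced through the zinc sensor MTF1 at metal response elements, and in liver also by glucocorticoids and inflammatory cytokines.

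The labels call the samples bone marrow-derived cells of liver tissue, and the sources used here give no cell sort. Hepatocyte transcripts were abundant on all 4 arrays, with Alb, albumin, at signals of 52315 and 46302 in the G-CSF samples and 43301 and 46068 in the PBS samples. In such mixed RNA, fewer cells of a type and less RNA per cell cannot be told apart. PBS replicate 1 was the most distant array, with Pearson correlations of 0.813 to 0.844 with the rest over the 12187 genes, whereas the other pairs of arrays had 0.939 to 0.974. The differences of the 10 genes are therefore also given against each PBS array alone. The Gapdh control probe sets gave a 3′ over 5′ ratio, which RNA integrity affects. It was 20.2 and 19.1 on the G-CSF arrays and 15.7 and 14.8 on the PBS arrays. The Actb ratio was 12.6 and 13.7 on the G-CSF arrays and 11.2 and 9.88 on the PBS arrays. Signal of both controls was thus much stronger at the 3′ end on all 4 arrays. The part of these ratios in the results was not tested. Signals are MAS5 values on a linear scale, and each difference is the G-CSF mean minus the PBS mean of log2(signal + 23). Its error is limma's standard error (SE, 2 arrays in each group), and the added 23 makes the changes of weak genes look smaller. Signals of different probe sets are not on a common scale, so levels are not compared between genes.

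The oxidative stress genes were neither called higher nor lower with G-CSF. For 9 of the 10 genes both G-CSF arrays lay between the PBS arrays, above PBS replicate 1 and below PBS replicate 2, and the exception was Txnrd1. The same order was found in 21.8% of all tested genes. The PBS arrays differed from each other by up to 6.86-fold in these genes (Srxn1), whereas the G-CSF arrays differed by at most 1.58-fold (Srxn1).

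**Figure D1:**
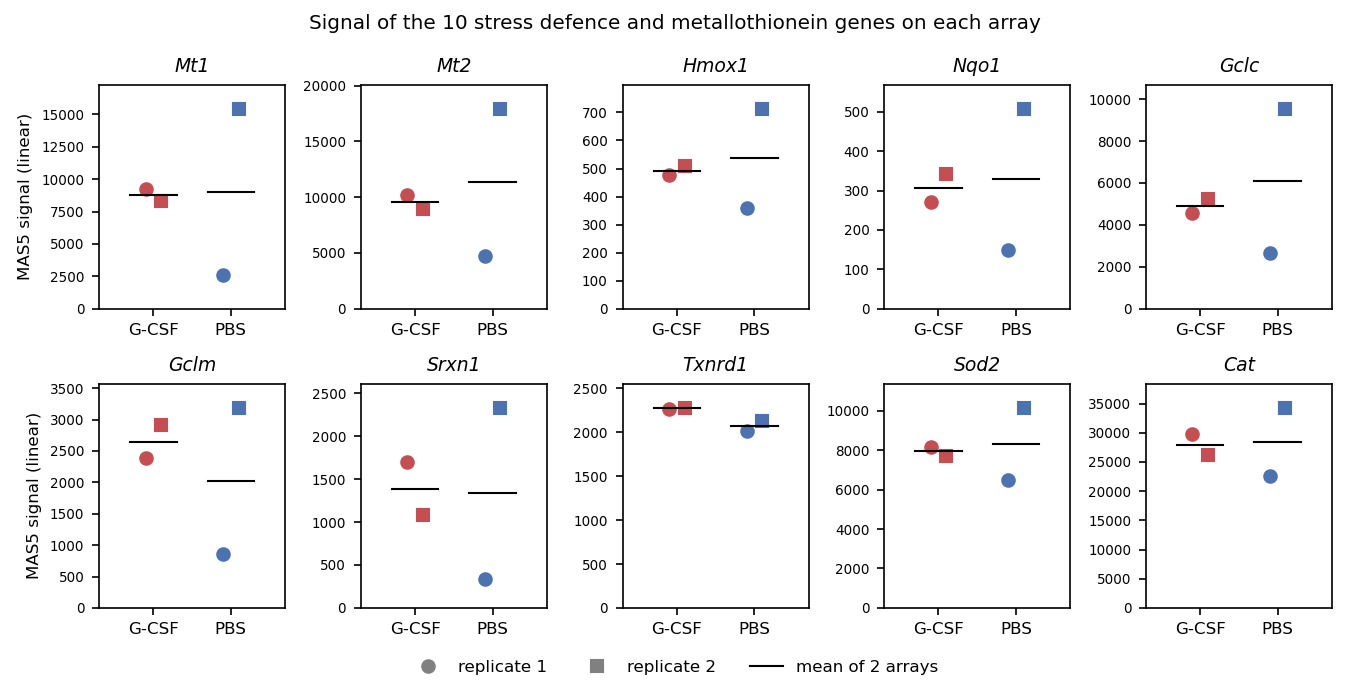
Signal of each gene's brightest probe set (MAS5, linear, each axis from 0) on the 2 G-CSF arrays (red, left) and the 2 PBS arrays (blue, right), with circles for replicate 1, squares for replicate 2 and lines for group means. In every panel but that of Txnrd1 both red points lie between the blue points.

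Mt1 and Mt2, the metallothioneins expressed in liver, showed some of the widest spreads. Mt1 had signals of 9259 and 8305 in G-CSF replicates 1 and 2, against 15458 in PBS replicate 2 and 2613 in PBS replicate 1. The group means were 8782 ± 675 with G-CSF and 9035 ± 9083 with PBS (SD, n = 2 each), so the groups overlapped and the PBS spread exceeded the difference of the means. Mt2 had 10157 and 8966 in the G-CSF samples, against 17938 in PBS replicate 2 and 4764 in PBS replicate 1. Both genes thus followed the same order of arrays, with PBS replicate 2 highest, the G-CSF samples in the middle and PBS replicate 1 lowest. The differences were 0.46 ± 0.85 for Mt1 and 0.04 ± 0.66 for Mt2, with limma adjusted p-values of 0.988 and 0.996. The 95% intervals of these differences ran from −1.71 to 2.63 for Mt1 and from −1.64 to 1.73 for Mt2, so changes of 2-fold in either direction were within them. The linear means of Mt1 and of Mt2 (9561 against 11351) were lower with G-CSF, so the sign of these differences depended on the scale. The same held for Nqo1 and Cat. The other Mt1 probe set, with signals of 11.8 to 79.3, was at background on all 4 arrays and gave no usable level. Background here means the brightest of 27 control probe sets whose target RNAs were taken to be absent from the samples, which was 63.0 to 106 per array.

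The start sites of Mt2 and Mt1 lie 6.47 kb apart on chromosome 8. Bases before the start sites of these genes and of Gclm are shown because they carry core letters of the antioxidant or the metal response element. The windows are from RefSeq (GRCm38.p6), 250 bases each, 5′ to 3′ on the strand of the gene, at chr8:94172368-94172617 (plus strand) for Mt2, chr8:94178839-94179088 (plus strand) for Mt1 and chr3:122245307-122245556 (plus strand) for Gclm. Capitals mark matches on either strand to the core of the antioxidant response element, TGACNNNGC, or of the metal response element, TGCACNC or TGCGCNC.
Mt2: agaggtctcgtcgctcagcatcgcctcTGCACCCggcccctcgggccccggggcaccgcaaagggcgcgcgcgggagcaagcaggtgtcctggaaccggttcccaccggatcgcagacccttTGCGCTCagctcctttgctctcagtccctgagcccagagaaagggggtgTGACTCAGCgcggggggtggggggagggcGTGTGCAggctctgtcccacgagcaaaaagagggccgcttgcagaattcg
Mt1: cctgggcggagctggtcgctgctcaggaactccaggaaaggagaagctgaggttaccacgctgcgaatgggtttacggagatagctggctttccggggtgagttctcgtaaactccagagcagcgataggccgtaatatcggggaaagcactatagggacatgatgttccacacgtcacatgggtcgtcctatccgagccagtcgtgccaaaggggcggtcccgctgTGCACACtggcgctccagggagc
Gclm: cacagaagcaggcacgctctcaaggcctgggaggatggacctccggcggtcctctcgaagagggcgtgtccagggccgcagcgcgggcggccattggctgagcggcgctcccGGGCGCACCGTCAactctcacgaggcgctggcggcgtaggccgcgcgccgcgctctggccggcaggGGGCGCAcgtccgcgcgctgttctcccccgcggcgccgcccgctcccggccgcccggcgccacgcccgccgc
The Mt2 window holds 3 matches to the metal response element core and 1 to the antioxidant response element core, the latter 79 to 71 bases before the start. The Mt1 window holds 1 match to the metal response element core, 23 to 17 bases before the start. The Gclm window holds 1 match to the antioxidant core, 134 to 126 bases before the start on the reverse strand, which overlaps 1 of its 2 matches to the metal core. Windows were found for 8 of the 10 genes, all but Hmox1 and Gclc, with 3 for Txnrd1. At least 1 window held the antioxidant core in 3 of these genes (Mt2, Gclm and Txnrd1) and the metal core in 4 (Mt1, Mt2, Gclm and Srxn1). Of 32851 mouse promoter windows of this length, 10.2% held the antioxidant core, 21.4% the metal core and 2.4% both, and 5.17% held at least 2 matches to the metal core. A match of such short letters is a description and does not show binding. Only these bases before the annotated start sites were searched. Elements elsewhere, also near another start site of a gene, would be missed, so the counts are not totals for Mt1 or any other gene.

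Hmox1 encodes heme oxygenase 1, which opens the heme ring to biliverdin, iron and carbon monoxide, and in liver is most active in macrophages that take up red cells. It had signals of 476 and 508 in G-CSF replicates 1 and 2, against 714 in PBS replicate 2 and 360 in PBS replicate 1. The G-CSF arrays lay close together and inside the PBS range, and the difference was −0.04 ± 0.43 (limma adjusted p = 0.996). Nqo1 encodes NAD(P)H quinone dehydrogenase 1, a reductase of quinones and a common readout of NRF2 activity. Its signals were 270 and 343 with G-CSF, against 509 in PBS replicate 2 and 150 in PBS replicate 1. The G-CSF arrays were again in the middle, and the difference was 0.11 ± 0.61 (limma adjusted p = 0.996). Each of these genes has a single probe set, so there was no other to set beside it.

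Gclc and Gclm encode the catalytic and the modifier subunit of glutamate-cysteine ligase, the rate-limiting enzyme of glutathione synthesis. Gclc had signals of 4546 and 5218 in the G-CSF samples, against 9552 in PBS replicate 2 and 2677 in PBS replicate 1. Its other probe set gave 4318 and 3651 with G-CSF, against 7530 in PBS replicate 2 and 2357 in PBS replicate 1, the same order of the groups. Gclm had 2389 and 2907 with G-CSF, against 3188 in PBS replicate 2 and 858 in PBS replicate 1. The G-CSF arrays of Gclm lay near PBS replicate 2, unlike those of Gclc, and the differences were 0.66 ± 0.67 for Gclm and −0.06 ± 0.65 for Gclc. Gclm had the largest difference of the 10 genes and the smallest unadjusted p (limma, 0.367; adjusted p = 0.988). A second Gclm probe set, with 713 and 1095 against 1320 in PBS replicate 2 and 381 in PBS replicate 1, gave a difference of 0.30.

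Srxn1 encodes sulfiredoxin, which restores over-oxidised peroxiredoxins. It had signals of 1700 and 1078 in G-CSF replicates 1 and 2, against 2332 in PBS replicate 2 and 340 in PBS replicate 1. PBS replicate 2 was 6.86-fold above PBS replicate 1, the widest gap among the 10 genes by their brightest probe sets, and the G-CSF difference was 0.58 ± 0.92 (limma adjusted p = 0.988). A second probe set had 292 and 299 with G-CSF, against 404 in PBS replicate 2 and 103 in PBS replicate 1, where the last value was at background. The remaining Srxn1 probe sets had signals of 15.4 to 182 and were at background on at least 1 array each.

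Txnrd1 encodes the cytosolic thioredoxin reductase, a selenoprotein that keeps thioredoxin reduced. Its brightest probe set was nearly level, with 2265 and 2280 in the G-CSF samples, against 2130 in PBS replicate 2 and 2015 in PBS replicate 1. This was the 1 gene of 10 whose groups did not overlap, a pattern seen in 30.7% of all tested genes, and the fold was 1.10 (0.13 ± 0.31, limma adjusted p = 0.988). Another probe set disagreed, with 271 and 325 with G-CSF, against 589 in PBS replicate 2 and 211 in PBS replicate 1, a difference of −0.24. That probe set thus had the order of arrays found in the other genes, and the remaining one, with 3.95 to 39.6, was at background throughout. The probe sets of Txnrd1 carry suffixes for sequences shared between transcripts of a gene or with other genes, so the direction of Txnrd1 is uncertain. The brightest probe sets of Mt1, Srxn1, Sod2 and Cat also carry a suffix for shared sequences, so related transcripts cannot be told apart on them. With specific probe sets only, the difference was −0.36 for Sod2 and −0.0465 for Cat.

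Sod2 and Cat encode mitochondrial manganese superoxide dismutase, which turns superoxide into hydrogen peroxide, and the peroxisomal catalase, which breaks hydrogen peroxide down. Sod2 is also induced through NF-κB by inflammatory cytokines. Sod2 had signals of 8166 and 7699 in the G-CSF samples, against 10150 in PBS replicate 2 and 6495 in PBS replicate 1. Cat had 29706 and 26230 with G-CSF, against 34274 in PBS replicate 2 and 22599 in PBS replicate 1. Both had narrower PBS spreads than the metallothioneins, 1.56-fold for Sod2 and 1.52-fold for Cat, and their differences were −0.03 ± 0.35 and 0.0043 ± 0.31 (limma adjusted p = 0.996 and 0.999). The 95% intervals, −0.93 to 0.86 for Sod2 and −0.79 to 0.80 for Cat, did not reach a 2-fold change in either direction on this scale. Neither did that of Txnrd1, −0.67 to 0.94. These intervals hold for the brightest probe sets only. A second Cat probe set, with 13097 and 12493 against 22538 in PBS replicate 2 and 7740 in PBS replicate 1, showed a wider PBS gap of 2.91-fold. Of 3 other Sod2 probe sets, 1 had 4256 and 3629 with G-CSF, against 7469 in PBS replicate 2 and 3409 in PBS replicate 1, and a difference of −0.36. A further one had 832 and 848, against 1147 in PBS replicate 2 and 881 in PBS replicate 1, so there the G-CSF arrays lay below both PBS arrays by a small margin. The last, with 57.8 to 75.1, was at background on all 4 arrays.

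By limma at an adjusted p of 0.05, 0 of the 10 genes were higher and 0 lower, and 0 had an unadjusted p below 0.05. Among all 12187 genes, 0.00% were called at the adjusted threshold and 3.52% had an unadjusted p below 0.05. None of the 10 combined a 2-fold difference with groups that did not overlap, against 5.56% of all tested genes. The median difference was 0.08 over the 10 genes and 0.07 over all tested genes. The smallest two-sided p that an exact permutation test of 2 arrays against 2 can give is 0.333, so no single gene could pass such a test.

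The direction depended on which PBS array was used. Against PBS replicate 1 alone all 10 genes were higher with G-CSF, by a median of 0.89, and 5 were called (limma, Benjamini-Hochberg): Mt1 by 1.74, Mt2 by 1.00, Gclc by 0.86, Gclm by 1.59 and Srxn1 by 1.92. In that comparison 22.6% of all tested genes were called higher, so calls were common there. Against PBS replicate 2 alone 9 of the 10 genes were lower, with a median of −0.61 over all 10, and 3 were called: Mt1 at −0.82, Mt2 at −0.91 and Gclc at −0.97 (limma adjusted p = 0.0483, 0.0364 and 0.0360). In that comparison 1.45% of all tested genes were called lower. The spread in each of these fits comes from the G-CSF arrays alone, and the single PBS array is assumed to vary like them. Mt1, Mt2 and Gclc were thus called in opposite directions against the PBS arrays, and the comparisons share the G-CSF arrays.

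**Figure D2:**
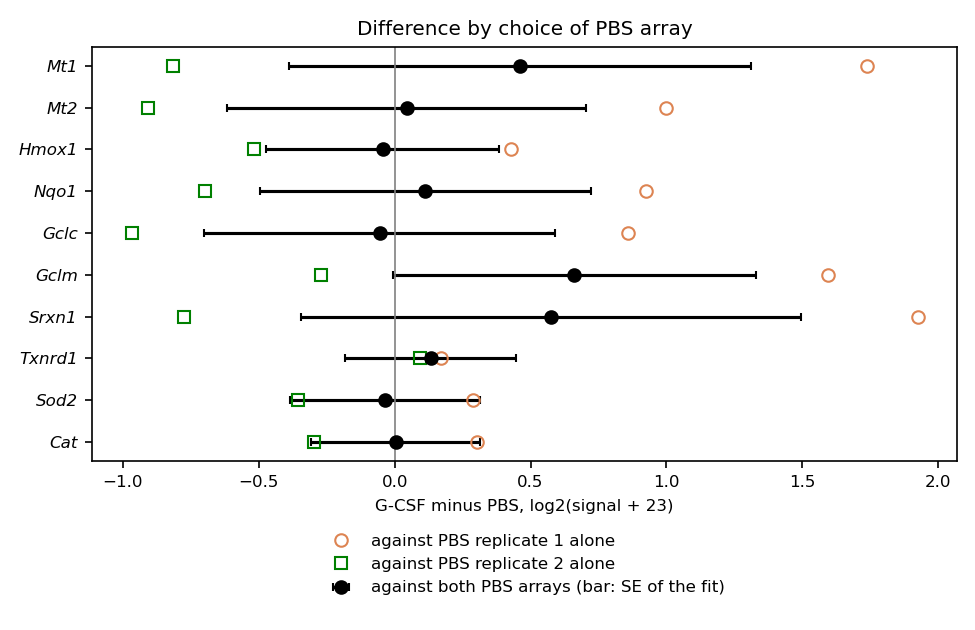
Difference of each gene between the G-CSF and PBS means of log2(signal + 23), against both PBS arrays (black, bar for the SE of the fit), PBS replicate 1 alone (open circles) and PBS replicate 2 alone (open squares). Open circles lie right of 0 for all 10 genes and open squares left of 0 for 9 of them. For Mt1, Mt2, Nqo1 and Cat the black points lie right of 0, although their linear G-CSF means were the lower ones.

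Between the PBS arrays, replicate 2 was above replicate 1 in all 10 genes, by a median of 1.72 on the log2 scale, and by at least 2-fold on that scale in 6 (Mt1, Mt2, Nqo1, Gclc, Gclm and Srxn1). Of all tested genes, 56.1% were higher in PBS replicate 2, 20.0% by at least 2-fold, with a median of 0.16. No gene of the 10 was 2-fold apart between the G-CSF arrays, as were 2.80% of all tested genes, and G-CSF replicate 1 was the higher in 5 of the 10. The other probe sets followed the same pattern. Of the 22 probe sets, 21 had a higher signal in PBS replicate 2, including all 16 that were above background on every array. In 14 of those 16 both G-CSF arrays lay between the PBS arrays. This gap compares 1 library with 1 other and has no replicate check.

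**Figure D3:**
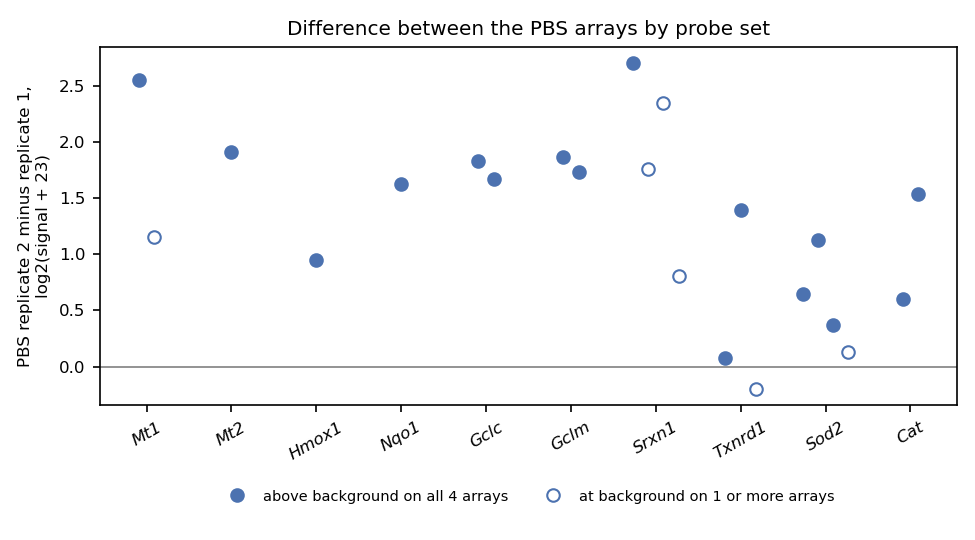
PBS replicate 2 minus PBS replicate 1 on the log2(signal + 23) scale for each of the 22 probe sets of the 10 genes, filled where the probe set was above background on all 4 arrays. All filled points lie above 0, from 0.08 for the brightest Txnrd1 probe set to 2.70 for the brightest Srxn1 probe set.

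The genes of the proteins that control this set were not called either, and none of the 8 tested NRF2 regulators had an unadjusted p below 0.05. Nfe2l2, which encodes NRF2, had signals of 5022 and 5247 in the G-CSF samples, against 5647 in PBS replicate 2 and 3229 in PBS replicate 1, a difference of 0.26 ± 0.39. Keap1, its inhibitor, was nearly level, with 1156 and 1054 against 1262 in PBS replicate 2 and 1206 in PBS replicate 1 (−0.16 ± 0.32). Bach1, the competing repressor, ran the other way between the PBS arrays, with 5955 and 5545 with G-CSF, against 4099 in PBS replicate 2 and 8613 in PBS replicate 1 (−0.05 ± 0.45). Mafg, a small MAF partner, had 1002 and 840 against 868 in PBS replicate 2 and 392 in PBS replicate 1 (0.63 ± 0.47). Nfe2l1, a relative of NRF2, differed by −0.21 ± 0.38. Mtf1, the zinc sensor that induces metallothioneins, had 1707 and 2341 with G-CSF, against 1786 in PBS replicate 2 and 601 in PBS replicate 1 (0.93 ± 0.59, limma adjusted p = 0.988). Of 8 tested regulators of NRF2, 3 had both G-CSF arrays between the PBS arrays with PBS replicate 1 lowest and 3 with PBS replicate 1 highest (21.8% and 16.5% of all tested genes), so this list had no common order.

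A wider list of NRF2 targets, chiefly glutathione transferases, transporters and enzymes that supply NADPH, had 24 tested genes of 28. None passed limma at the adjusted threshold, and 1 had an unadjusted p below 0.05. The median difference was 0.42, and it was 1.16 against PBS replicate 1 alone and −0.37 against PBS replicate 2 alone. Both G-CSF arrays lay between the PBS arrays, with PBS replicate 1 lowest, in 17 of the 24, and PBS replicate 2 was above PBS replicate 1 by a median of 1.60. Cbr3, a carbonyl reductase, had 3238 and 3180 in the G-CSF samples, against 6381 in PBS replicate 2 and 894 in PBS replicate 1, the order of arrays seen in Nqo1 (chosen after its values were seen). The genes with the smallest p had another order, but a choice by p favours groups that do not overlap. Of all tested genes, 30.7% had no overlap of the groups in either direction. Pgd, an NADPH-producing enzyme of the pentose phosphate pathway, had 32830 and 26974 with G-CSF, against 18259 in PBS replicate 2 and 13268 in PBS replicate 1 (0.93 ± 0.30, limma adjusted p = 0.988). Its G-CSF arrays were above both PBS arrays, as were those of Taldo1, transaldolase of the same pathway (0.78 ± 0.33), Ptgr1, prostaglandin reductase 1 (0.91 ± 0.41), and Gsr, glutathione reductase (0.51 ± 0.37).

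Glutathione and glutaredoxin genes, 13 tested of 15, had a median difference of 0.48. By limma 0 passed over all genes, and 1, Glrx, had an unadjusted p below 0.05. Glrx, glutaredoxin, had the smallest p of the list, with 2051 and 1923 in the G-CSF samples, against 557 in PBS replicate 2 and 412 in PBS replicate 1 (2.0 ± 0.34, limma adjusted p = 0.331). It stood at 1.79 against PBS replicate 2 alone and 2.21 against PBS replicate 1 alone, so its value did not hang on either PBS array. Gpx8, Gpx3 and Gpx7, glutathione peroxidases or their relatives, differed by 0.76 ± 0.33, 0.98 ± 0.48 and 0.71 ± 0.42. In the thioredoxin and peroxiredoxin list, 12 tested of 15, the median difference was 0.06 and none passed. In 11 of the 12 genes PBS replicate 2 was above PBS replicate 1, by a median of 0.18 and by at least 2-fold in 3 (Prdx3, Prdx4 and Msra). Its genes with the smallest p were Prdx2, a cytosolic peroxiredoxin (−0.43 ± 0.28), Txnip, which binds and inhibits thioredoxin (0.44 ± 0.30), Msra, a methionine sulfoxide reductase (0.43 ± 0.54), and Prdx4, the peroxiredoxin of the endoplasmic reticulum (0.37 ± 0.52). The other dismutases and their copper chaperone, all 3 tested, did not pass: Sod1 differed by 0.03 ± 0.29, Sod3 by 0.35 ± 0.42 and Ccs by −0.05 ± 0.61.

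Genes that surround the metallothioneins, Hmox1 and Cat in metabolism were listed too, and by limma 0 of them passed and 0 had an unadjusted p below 0.05. Zinc and metal handling genes, 11 tested of 14, had a median difference of 0.10 and a median PBS gap of 0.60, and none passed. Slc30a1, the zinc exporter that MTF1 also induces, had 2216 and 2056 in the G-CSF samples, against 1884 in PBS replicate 2 and 1238 in PBS replicate 1 (0.48 ± 0.37). Slc39a10, a zinc importer, ran the other way between the PBS arrays, with 776 and 846 with G-CSF, against 827 in PBS replicate 2 and 1836 in PBS replicate 1 (−0.59 ± 0.47). Atp7b, a copper transporter of hepatocytes, differed by 0.81 ± 0.33. Heme and iron genes, 12 tested of 15, had a median of 0.17 and a PBS gap of 1.01, and none passed. Hamp, which encodes the iron hormone hepcidin, had 17730 and 12752 with G-CSF, against 11346 in PBS replicate 2 and 2369 in PBS replicate 1 (1.53 ± 0.77). Slc48a1, a heme transporter, Tfrc, the transferrin receptor, and Blvra, biliverdin reductase A, which acts after heme oxygenase, differed by 0.73 ± 0.45, −0.49 ± 0.39 and −0.35 ± 0.36. Peroxisomal genes, the compartment of catalase, had 12 tested of 14, a median of 0.03 and a PBS gap of 1.17. Both G-CSF arrays lay between the PBS arrays, with PBS replicate 1 lowest, in 10 of these 12. None passed, and the genes with the smallest p were Pex11a (0.57 ± 0.38), Scp2 (0.19 ± 0.36), Pipox (−0.38 ± 0.78) and Hao1 (−0.16 ± 0.50).

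Markers of several cell types moved between the PBS arrays together with the 10 genes. All 14 hepatocyte markers were higher in PBS replicate 2, by a median of 1.42, and in 10 of the 14 both G-CSF arrays lay between the PBS arrays. Of all tested genes, 56.1% were higher in PBS replicate 2 and 21.8% had this order of arrays. Alb was nearly level between the PBS arrays, and both its G-CSF arrays lay above them. Its signals were close to the highest of any probe set, 58436 to 63693 per array. Whether differences are compressed at such signals was not tested. The summed signal of the 14 markers was 328561 and 310187 in the G-CSF samples, against 372246 in PBS replicate 2 and 197173 in PBS replicate 1. In such sums the brightest probe sets weigh most. Macrophage and Kupffer cell markers, 9 tested of 12, summed to 71663 and 66690 with G-CSF, against 91869 in PBS replicate 2 and 37743 in PBS replicate 1. Clec4f, a lectin of Kupffer cells, had 1298 and 1193 with G-CSF, against 2487 in PBS replicate 2 and 705 in PBS replicate 1. T cell markers, 10 tested of 12, ran the other way, summing to 5293 and 3682 with G-CSF, against 3625 in PBS replicate 2 and 20623 in PBS replicate 1. Cd247, the signalling zeta chain of the T cell receptor, had 78.5 and 90.1 with G-CSF, against 104 in PBS replicate 2 and 2570 in PBS replicate 1. The part of these cell types in the gap between the PBS arrays was not tested.

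Neutrophil markers followed the treatment and not the order of the stress defence genes. The 14 markers summed to 278684 and 242196 in the G-CSF samples, against 8885 in PBS replicate 2 and 26645 in PBS replicate 1, with a median difference of 4.92. All 14 were at least 2-fold higher with G-CSF with no overlap of the groups, and all 14 had an unadjusted limma p below 0.05, though none passed over all genes. Mpo, myeloperoxidase, had 11636 and 21026 with G-CSF, against 96.4 in PBS replicate 2 and 166 in PBS replicate 1. Beside this, the 10 stress defence genes had a median difference of 0.08 and none at 2-fold without overlap.

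**Figure D4:**
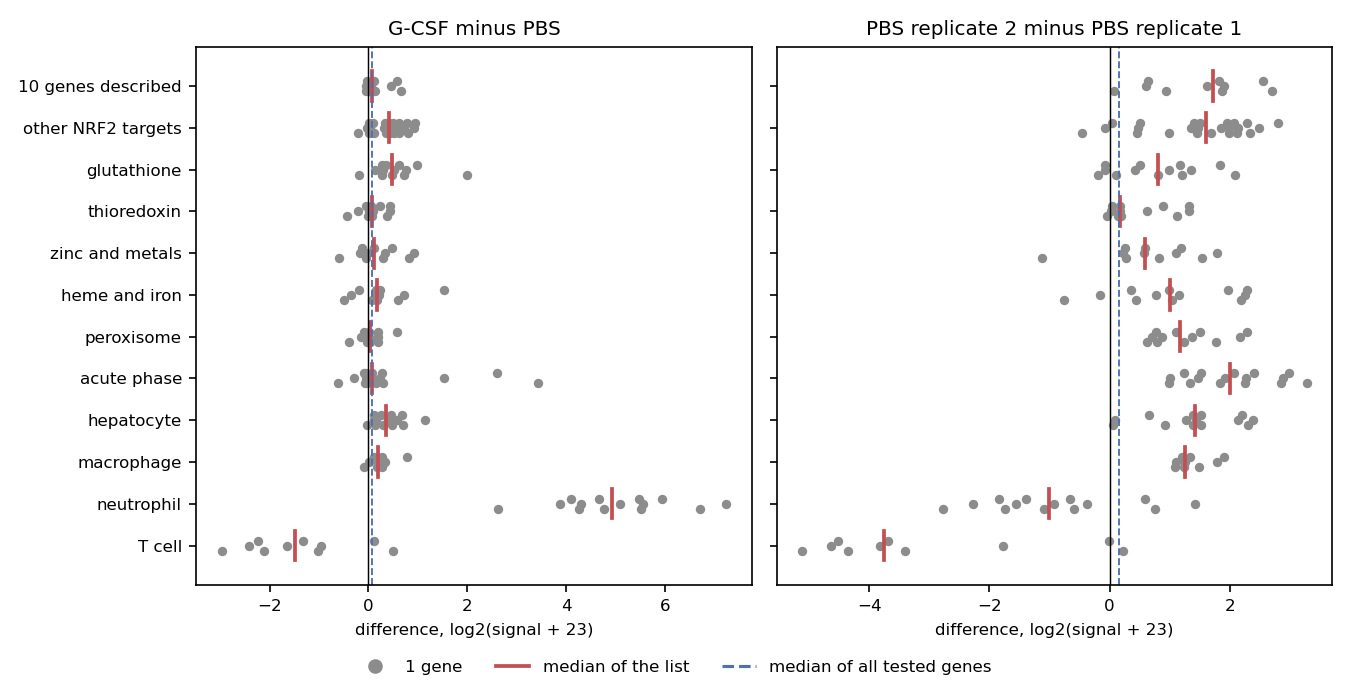
Differences on the log2(signal + 23) scale for the tested genes of each list (grey points), with the list median (red) and the median of all tested genes (dashed blue), for G-CSF minus PBS (left) and PBS replicate 2 minus PBS replicate 1 (right). The 10 stress defence genes have a median of 0.08 on the left and 1.72 on the right, and the hepatocyte list 0.35 and 1.42.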

How the data were processed

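Total RNA (RNeasy, 40 ng per sample, per the labels' protocols) was measured on 4 Affymetrix arrays of 45101 probe sets. The authors deposited linear intensity values, MAS5 signals per the submitters' processing notes (version not stated there). With 2% trimmed from each end, every array had a mean of 500, and no further scaling was applied. Groups follow the labelled treatment, and all columns belonged to a sample.

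Control probe sets (64) and probe sets with several genes (932) or none (9160) were left out. Of 34945 with 1 gene, 34741 matched a mouse gene table (GRCm38.p6) by Entrez ID. The probe set of highest mean signal stands for its gene, which was tested where that mean exceeded 95.0, the median of non-control probe sets. The pseudocount of 23 is the overall median signal (92.9) over 4, rounded. limma 3.58.1 in R 4.3.3 (lmFit, eBayes with trend, Benjamini-Hochberg at 0.05, two-sided) had 2 residual and 3.13 prior degrees of freedom. The number of arrays limits the precision. The procedure was tested on simulated data. The genes and lists were chosen with earlier results of these data known. Beside the 10 genes, the text names Nfe2l2, Keap1, Bach1, Mtf1, 4 cell markers, and up to 4 genes per list with the smallest p, while Cbr3 and Prdx3 were picked after their values were seen. Marker lists not described further were those of monocytes, B cells, stellate, endothelial, bile duct and erythroid cells, with median differences of 1.04, 0.63, 0.41, 0.39, 0.30 and −0.23. In the same order, PBS replicate 2 was above PBS replicate 1 by medians of 0.87, 1.07, 0.77, 1.46, 0.86 and 0.72. The median of this gap over all tested genes was 0.16, and the erythroid list had only 2 tested genes. As alternatives, arrays were median-centred or quantile-normalized, the pseudocount was set to 1 or 92, the filter was dropped or raised to the 75th percentile, the eBayes trend was removed or made robust, probe sets were averaged or limited to specific ones, the replicate number was a block, and each array was left out. Tables and figures used Python 3.11.15 with pandas 2.3.3, and matplotlib 3.10.9.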

Additional observations from a re-analysis of the deposited data

How the results depend on the processing

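Across the 11 settings that left out no array, none of the 10 genes was called (lowest limma adjusted p = 0.982), and none was 2-fold apart without overlap. Directions reversed for Mt2 and Cat with median centring (−0.0159 and −0.0565), for Txnrd1 and Cat with the mean of all probe sets (−0.26 and −0.0211) and for Cat with specific probe sets only (−0.0465), all values near 0 but that of Txnrd1. Txnrd1 and Mt1 had no specific probe set above the filter and Nqo1 lay below the 75th percentile filter, so those settings gave them no value. Over all genes, 0 were called in the setting reported and 11 with specific probe sets only. The labels share replicate numbers, but arrays of the same number did not deviate together (correlation −0.04 over tested genes), so the numbers were not taken as pairs. With the replicate block 92 genes were called and none of the 10.

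With each array left out in turn, the genes called over all genes ranged from 6 without G-CSF replicate 1 to 4689 without PBS replicate 2. The count was 22 without G-CSF replicate 2 and 516 without PBS replicate 1. The count of the 10 genes at least 2-fold apart without overlap ranged from 0 to 3, with 3 (Mt1, Gclm and Srxn1) without PBS replicate 2. The median difference of the 10 genes ranged from −0.61 without PBS replicate 1 to 0.89 without PBS replicate 2. Ranges of single genes were −0.82 to 1.74 for Mt1, −0.91 to 1.00 for Mt2, −0.52 to 0.43 for Hmox1, −0.70 to 0.92 for Nqo1, −0.97 to 0.86 for Gclc, −0.27 to 1.59 for Gclm, −0.77 to 1.92 for Srxn1, 0.09 to 0.17 for Txnrd1, −0.36 to 0.29 for Sod2 and −0.30 to 0.30 for Cat. Only without a PBS array were any of the 10 called, 3 without replicate 1 and 5 without replicate 2.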

Other observations

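Acute-phase genes, most of which encode proteins that hepatocytes secrete in inflammation, split into groups of genes with different patterns. Like the metallothioneins, they respond to cytokines. Of the 16 tested genes 0 were called by limma over all genes and 2 had an unadjusted p below 0.05, the median difference was 0.07, and 13 had both G-CSF arrays between the PBS arrays with PBS replicate 1 lowest. All 16 were higher in PBS replicate 2 than in PBS replicate 1, by a median of 2.0 on the log2 scale. Lcn2, lipocalin 2, which neutrophils also carry in granules, departed from this order, with signals of 34540 and 24627 in the G-CSF samples, against 9128 in PBS replicate 2 and 2536 in PBS replicate 1 (2.59 ± 0.65, limma adjusted p = 0.837). Saa3, a serum amyloid A made outside hepatocytes as well, had 7462 and 7197 with G-CSF, against 1838 in PBS replicate 2 and 229 in PBS replicate 1 (3.43 ± 0.95, limma adjusted p = 0.984). Hamp, the hepcidin gene of hepatocytes given above with the iron genes, also had both G-CSF arrays above both PBS arrays (1.53 ± 0.77). Hp, haptoglobin, which binds free hemoglobin ahead of heme breakdown, stayed in the common order, with 28679 and 29134 against 34347 in PBS replicate 2 and 17394 in PBS replicate 1 (0.24 ± 0.39).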
